A study of Mus musculus with 4 samples.

Results

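Carbonic anhydrases are zinc enzymes that convert carbon dioxide and water to bicarbonate and a proton, and back. The mouse isoforms differ mainly in where they act: some work in the cytosol, some in mitochondria, some at the cell surface and 1 active enzyme is secreted. Together with bicarbonate, lactate and proton transporters they set the pH inside and around cells, and at the surface of skin the pH of the barrier. Here 10 mouse carbonic anhydrase genes, *Car1*, *Car2*, *Car3*, *Car4*, *Car6*, *Car8*, *Car9*, *Car12*, *Car13* and *Car14*, are described in dorsal skin. They were taken by gene symbol from the 24346 symbols of the deposited tables, and all 10 were measured in every library. The family was selected on its difference between the groups in these same libraries, above all the lower *Car6*, so the members' differences are given as a description and not as a test.

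The study asked whether a diet with 7-ketocholesterol (7KC), an oxidized cholesterol, alters the skin's response to imiquimod (IMQ), a cream that activates Toll-like receptor 7 and induces psoriasis-like dermatitis. RNA from the dorsal skin of C57BL/6 mice was sequenced in 2 groups of 2 libraries. The Cont-IMQ mice ate the NASH diet (a high-fat, high-cholesterol diet with bile salt) and the 7KC-IMQ mice ate the same diet with 7KC added, in both groups for 3 weeks. All 4 libraries came from skin given IMQ for 1 day, so both the diet and IMQ are shared, and by their labels the groups differ in 7KC alone. The methods give male mice. The age is not in the labels, but the paper states it for the start of the diet. Neither the labels nor the methods say that each library is a separate mouse, so the standard errors and p-values measure only the spread between these libraries, which may be technical.

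Values were FPKM, the fragments of a gene scaled by transcript length and by the size of the library, which allows levels of different genes to be compared. Differences were taken on log2(FPKM + 1), 7KC-IMQ minus Cont-IMQ, which understates the difference of genes near or under 1 FPKM. The depth was estimated at 14980000 to 16180000 fragments per library from the spacing of low values. The libraries of 1 group differed in their hair follicle content: the 18 genes of the inner root sheath and hair shaft summed to 130 FPKM in Cont-IMQ replicate 1 and 1678 FPKM in Cont-IMQ replicate 2, a 12.9-fold gap, against 489 and 433 FPKM in the 7KC-IMQ libraries. Among keratinocyte genes, which mark the labelled tissue, *Krt14* stood at 4132 to 5700 FPKM and *Krt10* at 4597 to 8444 FPKM in the 4 libraries.

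The levels of the 10 genes covered more than 3 orders of magnitude. By mean over the 4 libraries, *Car3* came first at 529 FPKM, followed by *Car13* at 74.7 FPKM and *Car12* at 40.8 FPKM, and none of the ranges of these 3 overlapped. *Car14* at 4.82, *Car4* at 2.92, *Car2* at 2.43, *Car9* at 2.39 and *Car6* at 2.18 FPKM formed a middle group. Within it *Car14* stood above *Car4* in all 4 libraries, whereas the ranges of *Car4* and *Car2*, of *Car2* and *Car9*, and of *Car9* and *Car6* overlapped, so the order of these neighbours was not resolved. *Car8*, at 0.447 FPKM, overlapped in range with *Car6* only because of the 7KC-IMQ libraries. *Car1*, at 0.133 FPKM, was the lowest.

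**Figure D1:**
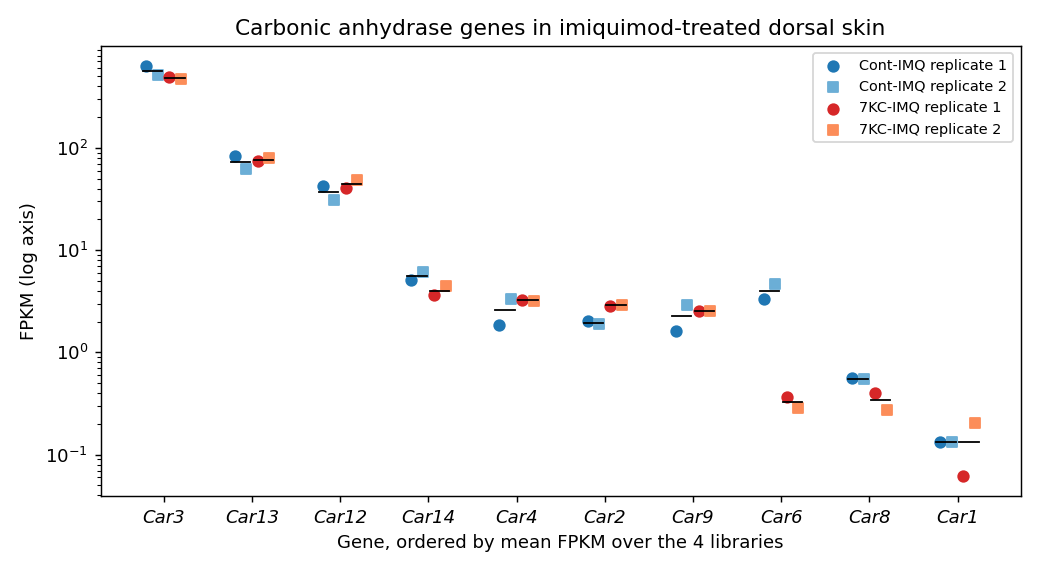
FPKM on a log axis of each carbonic anhydrase gene in the 4 libraries, with genes ordered by mean level; points are libraries and short black lines are group means. *Car6* is the gene with the widest gap between groups, with both 7KC-IMQ points under 0.4 FPKM and both Cont-IMQ points above 3 FPKM.

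Both 7KC-IMQ libraries lay below both Cont-IMQ libraries for 4 of the 10 genes (*Car3*, *Car6*, *Car8* and *Car14*) and above them for 1 (*Car2*). The groups overlapped for the other 5 (*Car1*, *Car4*, *Car9*, *Car12* and *Car13*). Over the 15896 genes tested, 22.9% lay below and 23.9% above without overlap. With limma, none of the 10 genes had an adjusted p under 0.05 and 3 (*Car2*, *Car6* and *Car14*) had an unadjusted p under 0.05, where the shares of all genes tested were 0.00629% and 13.0%. That adjusted share is 1 gene, the microRNA locus *Mir24-2*, which was listed at 0 in both 7KC-IMQ libraries and is named here after its values were seen. Since the genes were selected by this contrast, nothing is read from these counts. A single gene could not reach an exact permutation p under 0.333 with 2 libraries against 2.

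*Car6* encodes the active secreted isoform, known from saliva and milk. The gene (ENSMUSG00000028972.11) lies on the minus strand at chr4:150187015-150201332 (GRCm38, the build called mm10; GENCODE M21 annotation), and no other annotated gene overlaps it. *Car6* was measured at 3.36 and 4.69 FPKM in Cont-IMQ and at 0.366 and 0.284 FPKM in 7KC-IMQ. Both 7KC-IMQ libraries were far below both Cont-IMQ libraries, and the gap between the groups was wider than the gap within either. The group means were 4.03 ± 0.944 and 0.325 ± 0.0582 FPKM (SD, n = 2 each), so *Car6* was 12.4-fold lower in the 7KC-IMQ group. On log2(FPKM + 1) the difference was -1.91 (SE 0.17). Of the 15896 genes tested, 12 had a lower difference than *Car6*.

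The number of fragments behind the *Car6* values is small. From the longest transcript and the estimated depth, they correspond to about 70 and 97 fragments in the Cont-IMQ libraries and to about 8 and 6 in the 7KC-IMQ libraries. The 95% Poisson intervals, which cover counting error only, were 54.6 to 88.4 and 78.7 to 118 fragments in the former, and 3.45 to 15.8 and 2.20 to 13.1 in the latter. The intervals of the 2 groups did not meet. Since the family was selected on the lower *Car6* in these libraries, this is no test of the difference. No stretch of 75 bases in the *Car6* transcripts occurred letter for letter in an annotated transcript of another gene. Copies with mismatches, or outside the annotated transcripts, were not searched for. The size of the difference depended on the constant added before the logarithm: with 0.1 in place of 1 it was -3.27. Leaving out each library in turn gave -2.10 to -1.72. In whole skin, fewer cells of a type and less RNA per cell cannot be told apart, here and in every comparison that follows.

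Start regions are shown for the members whose upstream bases hold the letters ACGTG, the core of the hypoxia response element bound by hypoxia-inducible factors, because *Car9* is a textbook target of these factors. Of the 10 genes, 5 (*Car4*, *Car6*, *Car9*, *Car12* and *Car14*) had an entry in RefSeq's promoter table of build GRCm38.p6. Within the 250 bases before the RefSeq start, ACGTG on either strand was found for *Car6*, *Car9* and *Car14* and not for *Car4* or *Car12*. The same letters occurred in 16.6% of all 32851 promoters of that length. In the stretches of 30 bases below, written in the direction of the gene, capitals mark the letters, which read CACGT where they lie on the other strand.
*Car6*, chr4:150201267-150201296, minus strand: gaggaggtgaggCACGTGcacaggcaccaa
*Car9*, chr4:43506996-43507025, plus strand: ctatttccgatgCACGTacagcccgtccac
*Car14*, chr3:95904675-95904704, minus strand: cacccccctcctCACGTacaccggtttcga

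In *Car6* the 2 strands' matches overlap in the palindrome CACGTG, whose first base lies at -149 from the RefSeq start. GENCODE M21 begins *Car6* 197 bases further upstream, so in that annotation the palindrome is inside the gene. The 53 bases just before the GENCODE start hold no ACGTG and are shown because they are the part of the window that precedes every annotated *Car6* start:
*Car6*, chr4:150201333-150201385, minus strand: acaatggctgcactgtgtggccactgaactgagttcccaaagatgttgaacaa
The match in *Car9* begins at -18 from the RefSeq start, which is 42 bases inside the GENCODE gene. That in *Car14* begins at -7 and runs across the start of the GENCODE gene at chr3:95904691. The letters TTCNNNGAA, the core of STAT binding sites (7.02% of all promoters), AGGTCA, the nuclear receptor half-site (14.0%), and TATAAA, the TATA box (12.4%), were found on neither strand in any of the 5 windows. These matches describe the letters in the windows and say nothing of binding.

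The cytosolic isoforms *Car1*, *Car2*, *Car3* and *Car13* lie side by side on chromosome 3, within 259 kb (chr3:14641727-14900770), but did not share a direction. *Car3*, an isoform of low hydratase activity that is abundant in skeletal muscle and fat cells, was measured at 627 and 516 FPKM in Cont-IMQ and at 498 and 477 FPKM in 7KC-IMQ. The 2 groups did not overlap, but Cont-IMQ replicate 2 was closer to the 7KC-IMQ libraries than to the other Cont-IMQ library. The means were 571 ± 78.2 and 487 ± 14.8 FPKM (SD, n = 2), and the difference was -0.22 (SE 0.12). Without Cont-IMQ replicate 1 it was -0.08.

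*Car3* made up most of the family's transcripts. It accounted for 80.8% and 80.6% of the summed FPKM of the 16 mouse carbonic anhydrase genes in the Cont-IMQ libraries and for 78.6% and 76.1% in the 7KC-IMQ libraries. Its share was lower in both 7KC-IMQ libraries. Beside it, the 13 skeletal muscle genes summed to 11378 and 10591 FPKM in Cont-IMQ and to 9384 and 11041 FPKM in 7KC-IMQ, and the 12 adipocyte genes to 1901 and 2794 FPKM in Cont-IMQ and to 2713 and 2161 FPKM in 7KC-IMQ. Of the muscle genes, 2 lay below and 2 above without overlap, where 22.9% and 23.9% of all genes tested did. Of the adipocyte genes 1 lay below and 4 above, and none of either list was listed at 0 in any library. The part of muscle and fat content in the *Car3* values was not tested.

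*Car2*, the widespread cytosolic isoform of high activity, was the only member with both 7KC-IMQ libraries above both Cont-IMQ libraries. It was measured at 2.01 and 1.91 FPKM in Cont-IMQ and at 2.87 and 2.91 FPKM in 7KC-IMQ. Within each group the 2 libraries lay close together. The values correspond to about 49 and 46 fragments in Cont-IMQ and to 74 and 69 in 7KC-IMQ. No counting interval was computed for them. The means of 1.96 ± 0.0733 and 2.89 ± 0.0260 FPKM (SD, n = 2) give a 1.48-fold higher level, and the difference was 0.40 (SE 0.10). It was 0.37 to 0.42 when each library was left out in turn.

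*Car13*, a further cytosolic isoform, was measured at 82.5 and 62.2 FPKM in Cont-IMQ and at 74.1 and 79.9 FPKM in 7KC-IMQ. The 7KC-IMQ values lay between those of Cont-IMQ, the difference was 0.10 (SE 0.15), and without Cont-IMQ replicate 2 it turned to -0.10. *Car1*, known as an abundant isoform of red blood cells, was measured at 0.132 and 0.133 FPKM in Cont-IMQ and at 0.0622 and 0.203 FPKM in 7KC-IMQ. These values correspond to 1 to 3 fragments per library, so neither a level nor a fold was resolved at this depth. In addition, 6.02% of the 75-base stretches of *Car1* are shared with *Gm5843*. Red blood cell genes varied between libraries without following the groups: the 7 found in the tables summed to 27.0 and 7.16 FPKM in Cont-IMQ and to 6.81 and 25.6 FPKM in 7KC-IMQ. *Hba-a1*, an alpha globin, was at 18.2, 6.60, 6.46 and 25.3 FPKM in the same order, and *Hbb-bs*, a beta globin, was at 8.32 FPKM in Cont-IMQ replicate 1 and under 0.01 FPKM elsewhere. Of the 4 red blood cell genes tested, 1 (*Hbb-bs*) lay below without overlap and none above, where 22.9% and 23.9% of all genes tested did. *Hbb-bs* corresponds to about 54 fragments in Cont-IMQ replicate 1 and 0 in every other library, so its order between the groups was not resolved.

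*Car8* belongs to the family by sequence but lacks enzyme activity, and is known for binding the inositol trisphosphate receptor in Purkinje cells. It was measured at 0.563 and 0.545 FPKM in Cont-IMQ and at 0.406 and 0.274 FPKM in 7KC-IMQ. Both 7KC-IMQ libraries were lower, with a difference of -0.22 (SE 0.11). About 31 and 30 fragments in Cont-IMQ stood against 24 and 15 in 7KC-IMQ. The 95% Poisson interval of a single library was wide at this depth, at 20.2 to 42.8 fragments for Cont-IMQ replicate 2 and 8.40 to 24.7 for 7KC-IMQ replicate 2.

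Of the isoforms at the cell surface, *Car12* was by far the most abundant. *Car12*, *Car9* and *Car14* span the membrane with the catalytic domain outside the cell. *Car12* was measured at 42.7 and 31.3 FPKM in Cont-IMQ and at 40.8 and 48.3 FPKM in 7KC-IMQ. The groups overlapped, and the difference was 0.27 (SE 0.18), with 0.05 without Cont-IMQ replicate 2 and 0.49 without Cont-IMQ replicate 1.

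*Car14* was measured at 5.08 and 6.15 FPKM in Cont-IMQ and at 3.64 and 4.41 FPKM in 7KC-IMQ. Both 7KC-IMQ libraries were lower. The means were 5.62 ± 0.757 and 4.03 ± 0.548 FPKM (SD, n = 2), a 1.40-fold lower level in 7KC-IMQ, and the difference was -0.40 (SE 0.14). *Car14* overlaps *Aph1a* on the opposite strand. The library kit keeps the strand, but the sources used here do not say whether fragments were counted by strand.

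*Car9*, the hypoxia-induced isoform, was measured at 1.63 and 2.88 FPKM in Cont-IMQ and at 2.53 and 2.52 FPKM in 7KC-IMQ. The 7KC-IMQ libraries were nearly equal and lay between the Cont-IMQ libraries. The difference of 0.14 (SE 0.21) turned to -0.14 without Cont-IMQ replicate 1. *Car4*, held on the outer membrane by a lipid (GPI) anchor and known from capillary endothelium, was measured at 1.85 and 3.37 FPKM in Cont-IMQ and at 3.28 and 3.20 FPKM in 7KC-IMQ. Its difference of 0.27 (SE 0.23) likewise rested on Cont-IMQ replicate 1, and without that library it was -0.04. For *Car9* and *Car4* the Cont-IMQ library with the lower value was also the one with the lower hair follicle sum. The same held for *Car1*, *Car6* and *Car14*, and the reverse for *Car2*, *Car3*, *Car8*, *Car12* and *Car13*. The part of hair follicle content in the members' values was not tested. *Car9* shares its locus with the antisense gene *Gm12454*.

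**Figure D2:**
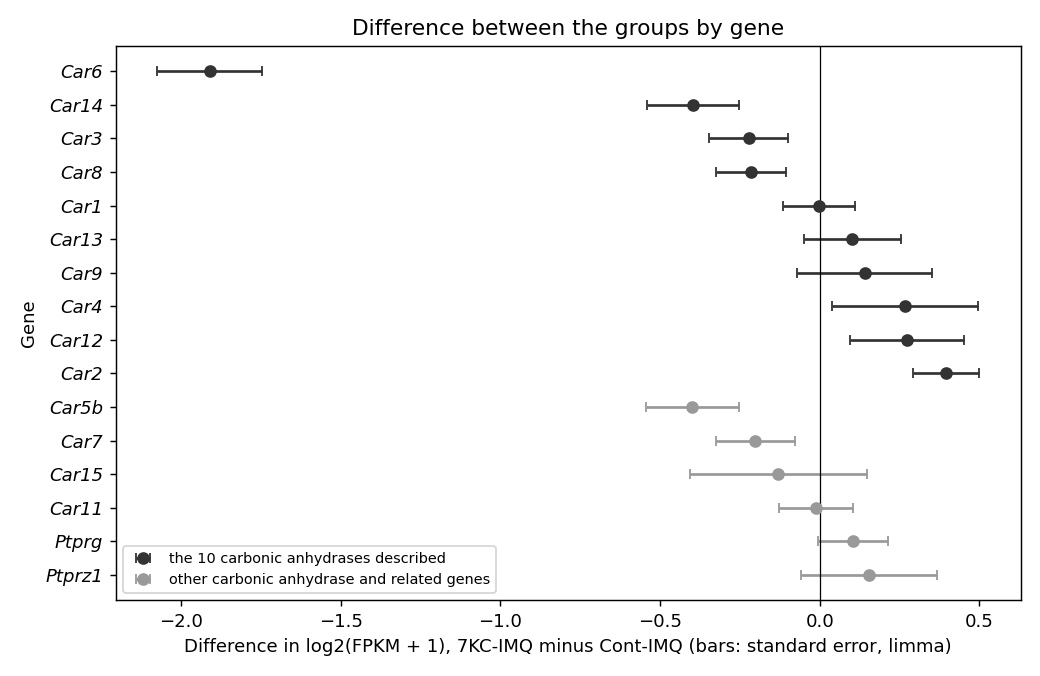
Difference in log2(FPKM + 1), 7KC-IMQ minus Cont-IMQ, of the 10 carbonic anhydrases (black) and of the 6 tested genes of the related list (grey); bars are standard errors from limma. *Car6* at -1.91 is the only gene beyond -1, and the other genes lie between -0.40 and 0.40.

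Summed by place of action, the active secreted, mitochondrial and cytosolic isoforms were lower in both 7KC-IMQ libraries, and the sums at the cell surface overlapped. The 5 cytosolic enzymes summed to 712 and 581 FPKM in Cont-IMQ and to 575 and 560 FPKM in 7KC-IMQ, without overlap. Without *Car3*, the remaining 4 summed to 85.2 and 65.0 FPKM in Cont-IMQ and to 77.4 and 83.5 FPKM in 7KC-IMQ, with overlap. The 3 transmembrane enzymes summed to 49.4 and 40.3 FPKM in Cont-IMQ and to 47.0 and 55.2 FPKM in 7KC-IMQ, also with overlap, and the 2 GPI-anchored enzymes to 2.21 and 4.17 FPKM against 3.42 and 4.01 FPKM, again with overlap. The 2 mitochondrial isoforms, nearly all *Car5b*, summed to 6.41 and 8.01 FPKM in Cont-IMQ and to 5.55 and 4.82 FPKM in 7KC-IMQ, without overlap. *Car8*, the inactive cytosolic member, makes up a class of its own and was lower in both 7KC-IMQ libraries, as given above. The active secreted isoform, which is *Car6* alone, took 0.433% and 0.733% of the family's FPKM in Cont-IMQ and 0.0578% and 0.0453% in 7KC-IMQ. The 2 secreted isoforms without activity, *Car10* and *Car11*, summed to 1.42 and 1.62 FPKM in Cont-IMQ and to 1.38 and 1.60 FPKM in 7KC-IMQ. Those sums overlapped between the groups.

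None of the remaining family genes passed the test. *Car5b* had a mean of 6.18 FPKM and *Ptprg* of 4.81 FPKM, beside 4.82 FPKM for *Car14*, and the others were lower. Of 8 listed genes 6 were tested. None had an adjusted p under 0.05 and 1 had an unadjusted p under 0.05, where 0.00629% and 13.0% of all genes tested did. Without overlap, 1 lay above and 2 below, against 23.9% and 22.9% of all genes tested. The median difference was -0.07 against -0.01 over all genes tested. *Car5b*, a mitochondrial isoform, was measured at 6.35 and 8.01 FPKM in Cont-IMQ and at 5.55 and 4.82 FPKM in 7KC-IMQ, a difference of -0.40 (SE 0.14, limma adjusted p = 0.374). *Car7*, a cytosolic isoform known from neurons, was also lower in both 7KC-IMQ libraries, with 0.548 and 0.704 FPKM in Cont-IMQ against 0.326 and 0.505 FPKM in 7KC-IMQ. *Ptprg*, a receptor phosphatase with a carbonic anhydrase-like domain, was higher in both, with 4.62 and 4.58 FPKM against 4.69 and 5.37 FPKM. The related phosphatase *Ptprz1* (1.27 to 2.35 FPKM) and the inactive *Car11* (1.38 to 1.60 FPKM) overlapped between the groups. *Car15* ranged from 0.136 to 0.810 FPKM, but 54.4% of its 75-base stretches are shared with *Gm20518*. *Car5a* and *Car10* were listed at 0 in 3 of the 4 libraries and were not tested.

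Transporters that move bicarbonate, protons and lactate work with these enzymes. Of 30 listed acid-base transport genes 24 were tested. None had an adjusted p under 0.05 and 4 had an unadjusted p under 0.05, where 0.00629% and 13.0% of all genes tested did. Both 7KC-IMQ libraries lay above for 11 genes and below for 3, where 23.9% and 22.9% of all genes tested did, and the median difference was 0.04. The most abundant gene, *Bsg*, the chaperone of the lactate transporters, overlapped between the groups at 251 and 262 FPKM in Cont-IMQ and 251 and 286 FPKM in 7KC-IMQ.

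The widest difference of this list was in *Slc26a4*, which encodes the anion exchanger pendrin. It was measured at 0.360 and 0.114 FPKM in Cont-IMQ and at 2.80 and 1.60 FPKM in 7KC-IMQ, so both 7KC-IMQ libraries stood well above (difference 1.35, SE 0.23, limma adjusted p = 0.352). About 16 and 5 fragments in Cont-IMQ stood against 130 and 69 in 7KC-IMQ. *Atp12a*, the non-gastric proton-potassium pump, was at 43.3 and 36.8 FPKM in Cont-IMQ and at 64.6 and 78.2 FPKM in 7KC-IMQ (difference 0.82, SE 0.13, limma adjusted p = 0.352). *Slc16a3*, the lactate exporter MCT4, was at 14.6 and 12.3 FPKM in Cont-IMQ and at 19.1 and 27.7 FPKM in 7KC-IMQ (difference 0.74, SE 0.20, limma adjusted p = 0.356). None of these 3 passed the test. The 3 genes that lay below were bicarbonate transporters of low level: *Slc4a4* with a difference of -0.25, *Slc4a3* with -0.24 and *Slc4a9* with -0.15.

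*Car9* is usually read together with other targets of hypoxia-inducible factors. The hypoxia response list of 23 genes holds such targets and also genes of the factors themselves, such as *Hif1a*. All 23 were tested. None had an adjusted p under 0.05 and 8 had an unadjusted p under 0.05. The shares of all genes tested were 0.00629% and 13.0%. Both 7KC-IMQ libraries lay above for 15 and below for 1 (23.9% and 22.9% of all genes tested), and the median difference was 0.33, where the median of all genes tested was -0.01. *Car9* differed by 0.14 with overlap. *Egln3*, an oxygen-sensing hydroxylase, was at 87.0 and 64.0 FPKM in Cont-IMQ and at 106 and 135 FPKM in 7KC-IMQ (difference 0.67, SE 0.19, limma adjusted p = 0.356). The glucose transporter *Slc2a1* (difference 0.64, SE 0.18) and *Hif1a* itself (difference 0.56, SE 0.15) were likewise higher in both 7KC-IMQ libraries with a limma adjusted p = 0.356. The glycolytic enzyme *Aldoa*, the most abundant gene of the list, overlapped at 1571 to 1989 FPKM, and *Mxi1*, an antagonist of Myc, was the gene that lay below (difference -0.20, SE 0.08).

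**Figure D3:**
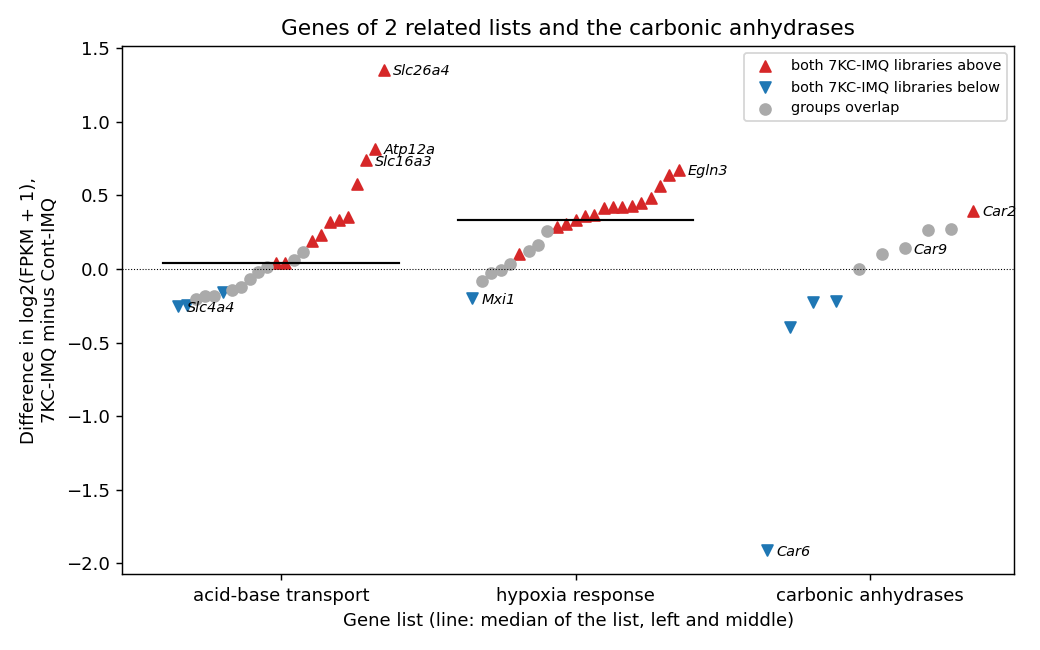
Difference in log2(FPKM + 1), 7KC-IMQ minus Cont-IMQ, of each tested gene of the acid-base transport list, the hypoxia response list and the 10 carbonic anhydrases, in rising order within each; the symbol gives whether the groups overlapped and black lines are the medians of the first 2 lists. The hypoxia list has its median at 0.33 with 15 of 23 genes above without overlap (23.9% of all genes tested), while *Car9* lies at 0.14 with overlap.

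Among the 13109 other genes with a mean of at least 1 FPKM, those whose pattern over the 4 libraries was most like that of *Car6* were *Ankrd1*, *Hoxc10*, *Scgb1a1*, *Hamp2* and *Csrp3*. Likeness was the Euclidean distance between log2(FPKM + 1) values centred on each gene's own mean, which was 0.32 for *Ankrd1* and 0.76 for *Csrp3*. *Ankrd1*, a stretch-responsive protein of striated muscle, was at 24.9 and 42.5 FPKM in Cont-IMQ and at 7.24 and 6.47 FPKM in 7KC-IMQ. *Csrp3*, the muscle LIM protein, was at 411 and 491 FPKM in Cont-IMQ and at 149 and 220 FPKM in 7KC-IMQ. *Hoxc10*, a homeobox gene expressed in posterior parts of the body, was at 4.22 and 4.04 FPKM in Cont-IMQ and at 0.996 and 0.309 FPKM in 7KC-IMQ. As in *Car6*, both 7KC-IMQ libraries were low for each. *Scgb1a1*, a secretoglobin, and *Hamp2*, a hepcidin, lay at 5.15 FPKM or less. They were picked for this likeness over only 4 libraries, so it is no evidence of a link.

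Other cell types of skin were followed through their markers, and no gene of any marker list had an adjusted p under 0.05. Of the 8 endothelial genes, 6 lay below without overlap and none above, where 22.9% and 23.9% of all genes tested did. Their median difference was -0.41, and they summed to 78.4 and 83.6 FPKM in Cont-IMQ and to 67.4 and 63.1 FPKM in 7KC-IMQ. *Pecam1* was at 21.9 and 26.0 against 19.1 and 19.1 FPKM, whereas *Eng* overlapped at 15.2 to 16.5 FPKM. *Car4*, which capillary endothelium is known to express, overlapped between the groups. The 6 Schwann cell genes, with 3 below and none above, summed to 56.6 and 55.8 FPKM in Cont-IMQ and to 53.1 and 46.7 FPKM in 7KC-IMQ.

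Over all genes tested, 23.9% lay above and 22.9% below without overlap. Of the 7 neutrophil genes tested, 6 lay above and 1 (*Mmp9*, with a difference of -0.50, named after its values were seen) below without overlap. They summed to 2580 and 2125 FPKM in Cont-IMQ and to 7224 and 13818 FPKM in 7KC-IMQ, chiefly through *S100a8* and *S100a9*, which keratinocytes of inflamed skin also express. The 10 sebaceous gland genes, with 7 above and 2 below, summed to 769 and 640 FPKM in Cont-IMQ and to 871 and 850 FPKM in 7KC-IMQ. Neither the 7 keratinocyte genes, with 1 above and 1 below, nor the 6 melanocyte genes, with none above and 1 below, nor the 18 hair follicle genes, none of which was without overlap, followed the groups. None of the endothelial, Schwann cell, neutrophil, sebaceous gland, keratinocyte or melanocyte genes in the tables was listed at 0 in a library, and of the hair follicle genes *Krt86* was. The part of cell type content in the *Car6* difference was not tested.

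**Figure D4:**
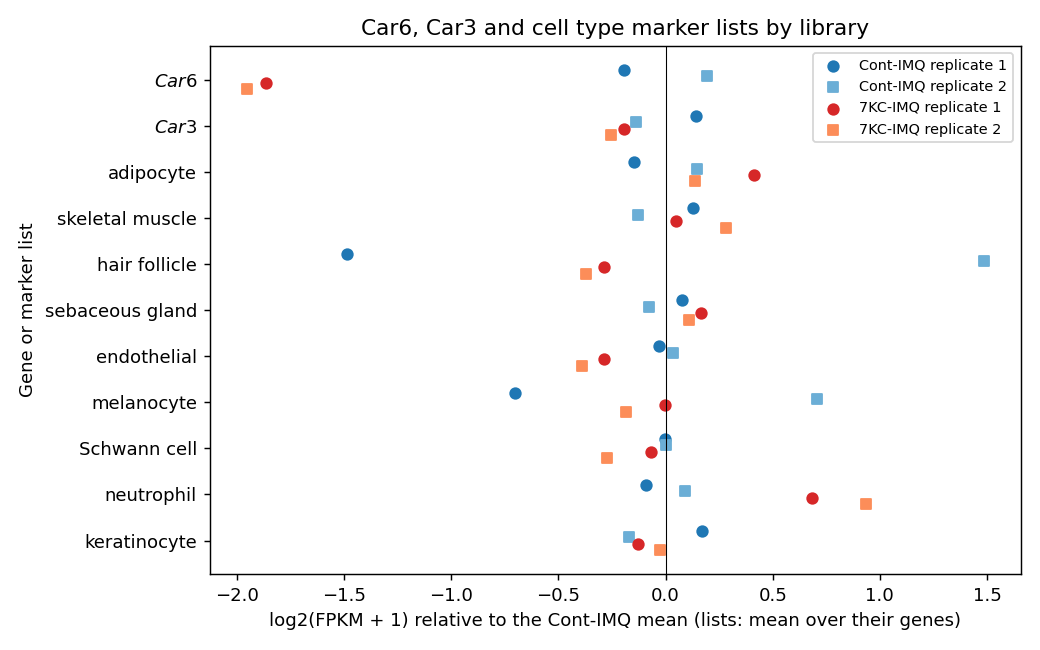
log2(FPKM + 1) of *Car6* and *Car3*, and the mean log2(FPKM + 1) over the genes of 9 marker lists, in each library relative to the Cont-IMQ mean. *Car6* separates both 7KC-IMQ libraries from both Cont-IMQ libraries. The neutrophil and sebaceous gland lists (7KC-IMQ higher) and the endothelial and Schwann cell lists (7KC-IMQ lower) also do so. The hair follicle and melanocyte lists instead separate Cont-IMQ replicate 1 from Cont-IMQ replicate 2.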

How the data were processed

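Total RNA of 4 dorsal skin samples was made into stranded mRNA libraries. The authors deposited 1 table of FPKM values per library. Per the submitters' processing notes, TopHat2 2.1.1, Bowtie2 2.2.8, SAMtools 0.1.18 and Cuffdiff 2.2.1 were used with build mm10; the annotation is not given in the sources used here. FPKM values are not counts, so no count test was run.

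Genes with a mean of at least 0.1 FPKM (15896) were tested with limma 3.58.1 (R 4.3.3; mean-variance trend) on log2(FPKM + 1), with Benjamini-Hochberg adjustment over all of them and a threshold of 0.05; the script was tested on simulated data. Tables were made with Python 3.11.15. Depth was estimated from genes with a single transcript, an effective length of transcript length minus 200 bases, and the spacing of low values. Of 521 to 548 low genes per library (1 to 6 fragments), 73.1% to 76.0% then lay within 0.1 of a whole fragment. At a depth set beforehand, 20% would by chance. Here the depth was picked to make this share largest, so chance would give more than 20%. Fragments per gene used the longest GENCODE M21 transcript and are approximate; 3 fragments were taken as the floor.

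The members and gene lists were chosen with earlier results of these data known. Named genes were all members; all genes of the related family list; from the acid-base and hypoxia lists the gene of highest mean and up to 3 with the largest difference in each direction without overlap; and the 5 genes nearest to *Car6*. From each marker list up to 2 genes of highest mean are named where a result turns on them. *Hbb-bt*, *Ahsp*, *Epb42*, *Ly6g* and *Flg* had no row under these symbols and were not used here. The alternatives were another pseudocount, another filter or none, 3 other scalings, no variance trend, a replicate block and leaving out each library.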

Additional observations from a re-analysis of the deposited data

How the results depend on the processing

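The differences of the 10 carbonic anhydrases were recomputed under up to 12 alternatives each, 118 values in all, of which 113 kept their direction and none passed the adjusted threshold. *Car6* stayed lower in all 12, at -3.27 to -1.72, with limma adjusted p from 0.166 to 0.394 where all 4 libraries were kept. For members without overlap, *Car6* among them, most alternatives could not turn the direction. These were leaving out a library and changing the pseudocount, filter, variance trend or block. *Car1* was 0.0048 with quantile normalization, and leaving out libraries gave -0.092 to 0.087 for *Car1*, -0.042 to 0.58 for *Car4*, -0.14 to 0.42 for *Car9* and -0.10 to 0.30 for *Car13*. When libraries were left out, the members without overlap numbered 6 to 9 (9 without Cont-IMQ replicate 1, 8 without Cont-IMQ replicate 2), of them 1 to 3 higher. With fewer libraries fewer genes can overlap, and over all genes 33.3% to 38.8% then lay above and 33.5% to 39.1% below. Quantile normalization gave 2 higher members. Leaving out libraries gave 5 to 8 lower acid-base genes, 1 to 4 lower hypoxia genes, and 1 to 4 higher and 2 to 5 lower genes of the related family list. With each library scaled to the same FPKM sum, there were 5 lower acid-base genes, 2 lower hypoxia genes and 0 higher genes of the related family list, and over all genes 15.0% lay above and 32.1% below, against 23.9% and 22.9%; with a mean of at least 1 FPKM, 1 gene of the related list was lower. Over all genes, those past the adjusted threshold numbered 2 with a pseudocount of 0.1, 71 without a filter, and 1 to 9 with a library left out (9 without Cont-IMQ replicate 1, 5 without Cont-IMQ replicate 2). Those at an unadjusted p under 0.05 numbered 615 to 2331 with a library left out, against 2061 (615 without 7KC-IMQ replicate 2, 1137 without 7KC-IMQ replicate 1). With the replicate block 1 gene passed, as without it, and *Car6* differed by -1.91; the labels do not say that a number marks a shared mouse or batch, and deviations of same-numbered libraries correlated at 0.07 over 15896 genes. Leaving out a library leaves 1 sample in its group, which is then assumed to vary like the other group. Depth limits *Car1* and the 7KC-IMQ values of *Car6*. It also limits *Car8* at about 15 to 31 fragments per library, *Car7* at 9 to 19 and *Car15* at 2 to 13. The cause of these shifts was not tested.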
